A study of Xenopus laevis with 6 samples.

Results

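Gene expression was compared directly between animal caps of Xenopus laevis that expressed Mixer and animal caps that expressed Sox17beta. The comparison used 4 of the 6 arrays of the series, 2 titled as Mixer expressing and 2 titled as Sox17 expressing, chosen by their titles and paired by the replicate number in the title. The other 2 arrays came from uninjected caps and served to tell which of the injected groups had moved, and they also entered the estimate of the spread. An animal cap is an explant of the ectoderm at the animal pole of the embryo. All caps were labelled gastrula stage 10.5 and of mixed sex, and total RNA was hybridised to Affymetrix arrays. The labels give no genotype, dose of the injected material, number of caps per array, clutch or day of injection. A difference between the groups therefore cannot be told apart from a difference in dose, and nothing says that the 2 arrays of a group are separate batches of embryos, so the p-values may cover technical spread alone.

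Mixer is a paired-type homeodomain transcription factor and Sox17beta is an HMG-box transcription factor of the SoxF group. Both are made in the vegetal cells of the frog gastrula that become endoderm, and each is known to switch on endodermal genes when supplied to animal caps. Left alone, animal cap cells form epidermis under the influence of BMP ligands, while Nodal ligands turn them towards mesoderm and endoderm. The endings .L and .S in gene names name the 2 copies of a gene that the frog's genome duplication left, 1 on a longer and 1 on a shorter chromosome.

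Values are log2 expression values per probe set, so a difference of 1 is a 2-fold change, and 15491 probe sets were tested after 120 controls were set aside. A probe set was called when its Benjamini-Hochberg adjusted p from limma, fitted with the replicate number as a block, was at most 0.05. Array medians lay between 6.5 and 6.55, as the processing equalises the arrays' distributions. The mean of 18 hybridization controls was 10.44 (uninjected), 10.56 (Mixer) and 10.47 (Sox17beta) in replicate 1. In replicate 2 it was 9.21, 8.89 and 9.25. Each injected array correlated more closely with the same-numbered arrays of the other groups than with its own partner. Mixer replicate 1, for example, correlated at 0.9855 with uninjected replicate 1 and at 0.9583 with Mixer replicate 2. On each array the highest of 44 controls with no frog transcript lay at 5.9 to 6.09, except on Sox17beta replicate 1, where it lay at 6.62. On that array 48.5% of probe sets lay above this ceiling, against 57.8% to 60.7% on the other 5 arrays. A gene below the ceiling in the lower group has an uncertain fold.

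The injected genes were examined first, as a check of the labels. The mixer.L probe set read 14.07 and 14.06 in Mixer caps, 6.83 and 6.53 in Sox17beta caps, and 6.46 and 6.54 in uninjected caps. The Mixer arrays stood far above the other 4, and these were the highest values on either Mixer array, with a difference of 7.39 ± 0.13 (SE, adjusted p = 2.97e-06). The second copy, mixer.S, read 6.39 and 6.19 in Mixer caps and 5.88 and 5.57 in Sox17beta caps, a difference of 0.57 that was not called (adjusted p = 0.0668).

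Sox17b.1.S was measured by a pair of probe sets. The gene-specific one, ending _at, read 13.11 and 13.9 in Sox17beta caps, 9.63 and 9.33 in Mixer caps, and 6.91 and 6.7 in uninjected caps. The Mixer arrays thus lay between the other groups without overlap, and Sox17beta caps were higher than Mixer caps by 4.03 ± 0.25 (16.3-fold, limma adjusted p = 0.0012). The probe set shared by similar transcripts, ending _s_at, read 12.49 and 13.11, 9.28 and 9.35, and 5.25 and 5.11 in the same order of groups, with Sox17beta over Mixer by 3.48 (adjusted p = 0.000471). A probe set reads injected and embryonic transcripts together. Mixer caps were therefore high for both injected genes, whereas Sox17beta caps were high for sox17b.1.S and were not called for mixer.L against uninjected caps (adjusted p = 0.52).

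Of the 15491 probe sets, 241 were called between Mixer and Sox17beta caps, which is 1.56% of those tested. Of these, 155 (1%) were higher in Mixer caps and 86 (0.555%) were higher in Sox17beta caps. Differences of at least 2-fold made up 165 (1.07%), 105 and 60 each way, and at least 4-fold differences 24 and 16. The mean of the lower group lay below the control ceiling for 53 of the 155 and for 55 of the 86, so their folds are uncertain. The 155 held 104 distinct named genes, 4 probe sets with several names and 36 with none. The 86 held 53 distinct named genes, 3 probe sets with several names and 28 with none. All 155 and all 86 had the same sign within replicate 1 and within replicate 2, which the call itself selects for. The values of the 2 groups did not overlap for 140 of the 155 and for 85 of the 86, where 24.5% of all probe sets tested showed no overlap, 9.21% with Mixer caps higher and 15.3% with Sox17beta caps higher.

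The count depended on the fit. Without the block 9 were called (0.0581%), 5 higher in Mixer caps (0.0323%) and 4 in Sox17beta caps (0.0258%), and 615 had an unadjusted p under 0.05 against 2171 with it. These 9 were mixer.L, gata4.L, sox17a.S, irx4.L, eomes.L, the shared sox17b.1.S probe set and 3 unnamed probe sets. Every other call given below is therefore a call of the fit with the block only. Fitted on the 4 injected arrays alone with the block, 12 were called. For this difference, leaving out an uninjected array is the same fit, as the array left only sets its own group mean. Leaving out either uninjected array gave the same 12, and leaving out Sox17beta replicate 1 gave 136 (71 higher in Mixer caps and 65 in Sox17beta caps), of which 74 were among the 241. Leaving out Sox17beta replicate 2 gave 1, and leaving out either Mixer array gave 0 (1089 and 1121 with an unadjusted p under 0.05).

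**Figure D1:**
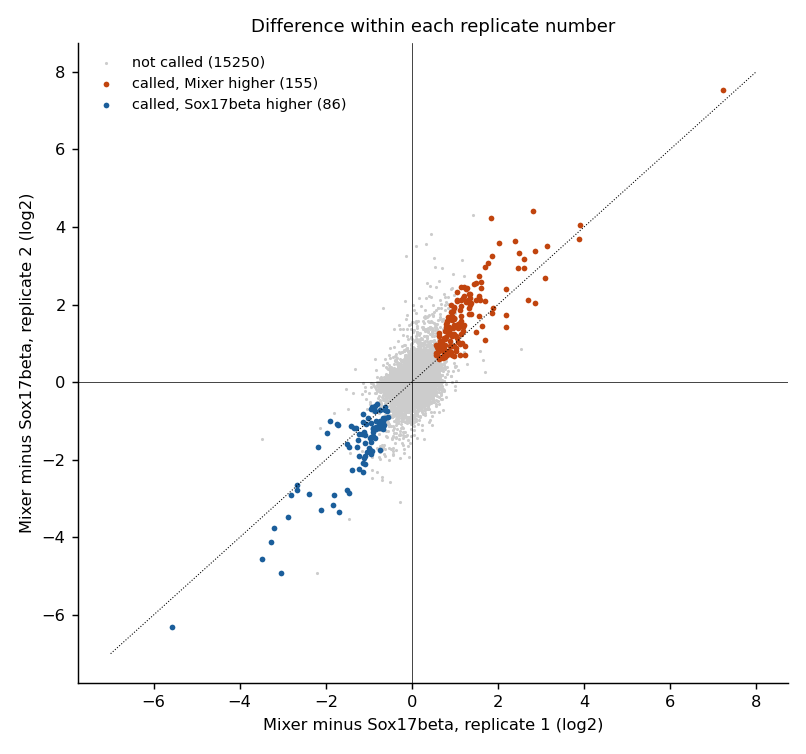
Mixer minus Sox17beta (log2) within replicate 1 (x axis) and within replicate 2 (y axis) for 15491 probe sets, with the 155 called higher in Mixer caps in orange and the 86 called higher in Sox17beta caps in blue; the dotted line marks equal differences. Called probe sets lie at the upper right and lower left, and most lie farther from 0 on the replicate 2 axis.

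Differences were often larger in replicate 2. Among the called probe sets this held for 122 of the 155 and for 67 of the 86, whereas 44.2% of all 15491 probe sets had the larger absolute difference in replicate 2. The standard deviation of the differences over all probe sets was 0.322 in replicate 1 and 0.417 in replicate 2. Over the 241 the differences of the 2 replicates correlated at 0.959, and over all probe sets at 0.568. Both figures are descriptions across genes, which are not independent replicates, and the call itself selects probe sets that behaved alike in both.

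The uninjected arrays showed which group had moved. The comparisons against uninjected caps share the Mixer or Sox17beta arrays with the direct one, so their counts are descriptions. Over all probe sets, 1.31% were called between Mixer and uninjected caps (0.536% higher in Mixer caps, 0.775% lower) and 5.45% between Sox17beta and uninjected caps (1.88% higher in Sox17beta caps, 3.56% lower). Of the 86 probe sets higher in Sox17beta caps, 71 had risen in Sox17beta caps with no call in Mixer caps, 4 had risen in both and 4 had fallen in Mixer caps only. One, slc7a8.S, fell in Mixer caps and rose in Sox17beta caps, and 6 were called in neither. Their median was 1.27 above uninjected in Sox17beta caps and 0.07 above it in Mixer caps.

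The 155 probe sets higher in Mixer caps were of a more mixed kind. For 39 of them Mixer caps had risen with no call in Sox17beta caps, and for 76 Sox17beta caps had fallen with no call in Mixer caps. Of the rest, 31 were called in neither, 4 fell in both, 3 rose in both, and 2 rose in Mixer caps and fell in Sox17beta caps. Their median difference from uninjected caps was 0.34 in Mixer caps and -0.78 in Sox17beta caps. By position alone, the uninjected mean lay between the injected means for 76 of the 155, above both for 53 and below both for 26.

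**Figure D2:**
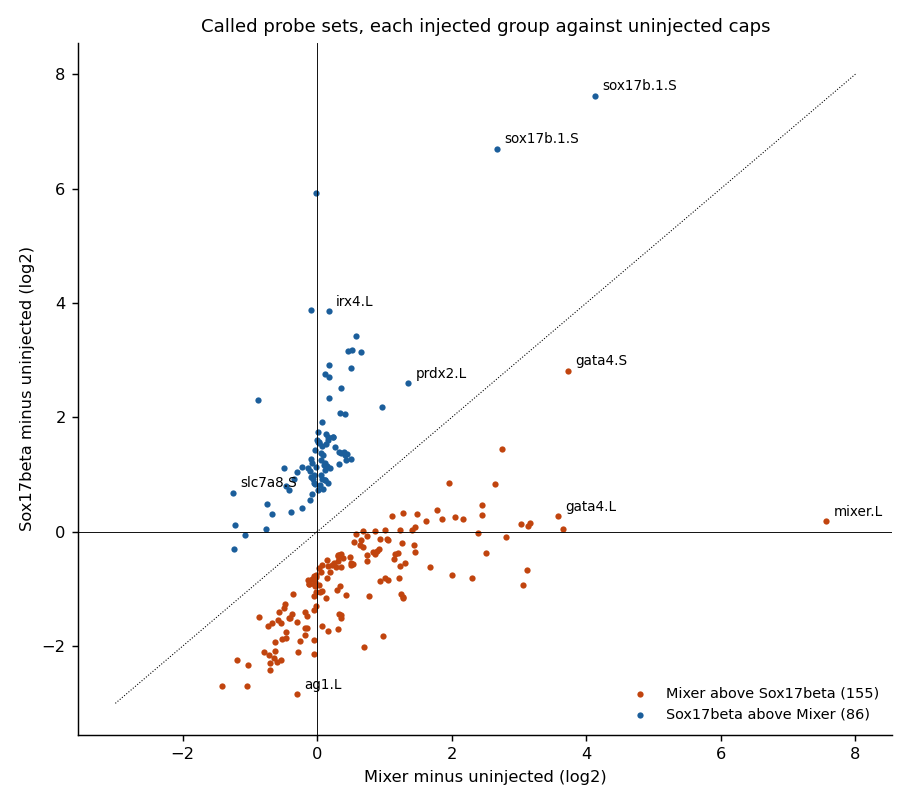
Each of the 241 called probe sets by its difference from uninjected caps in Mixer caps (x axis, log2) and in Sox17beta caps (y axis, log2); orange points were higher in Mixer caps, blue points in Sox17beta caps, and the dotted line marks equal responses. Blue points rise along the vertical axis near 0 on the Mixer axis, while orange points run both to the right of 0 and downwards along the Sox17beta axis.

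Among endodermal transcription factors, gata4.L differed most after the injected genes. The zinc-finger factor gata4.L read 8.66 and 8.8 in Mixer caps, 5.53 and 5.3 in Sox17beta caps, and 5.2 and 5.09 in uninjected caps. The Sox17beta and uninjected arrays lay below the control ceiling, so the gata4.L fold is uncertain. Mixer caps stood above every other array, by 3.31 ± 0.13 over Sox17beta caps (9.95-fold, limma adjusted p = 0.000157). Its second copy did not follow that pattern. Gata4.S read 7.3 and 8.41 in Mixer caps and 6.41 and 7.48 in Sox17beta caps against 3.85 and 4.41 in uninjected caps, so both injected groups stood high, and their difference was 0.91 ± 0.16 (adjusted p = 0.0473). The 2 injected groups overlapped in gata4.S, while within each replicate number Mixer was the higher. The difference was thus large for the L copy and small for the S copy.

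Sox17a, the other sox17 gene of the frog, was high in Mixer caps and near the uninjected level in Sox17beta caps. Sox17a.S read 7.12 and 7.56 in Mixer caps, 4.51 and 4.39 in Sox17beta caps, and 4.28 and 4.34 in uninjected caps, a difference of 2.89 ± 0.15 (limma adjusted p = 0.000471). Sox17a.L read 6.67 and 7.92, 4.28 and 4.29, and 4.22 and 4.03 in the same order, a difference of 3.01 ± 0.32 (adjusted p = 0.00863). Both copies were below the control ceiling in the 4 arrays without Mixer, so the folds are uncertain.

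Of 30 measured genes of the endoderm regulator list, 7 were called higher in Mixer caps and 1, sox17b.1.S, in Sox17beta caps. Of all probe sets, 1% and 0.555% were called in these directions. The median difference of the list was 0.17, where that of all probe sets was -0.03. Besides mixer.L and both copies of gata4 and sox17a, the 7 held gata5.S and cer1.S. Gata5.S, another GATA factor of endoderm, read 6.43 and 7.58 in Mixer caps against 5.18 and 5.19 in Sox17beta caps, a difference of 1.82 (adjusted p = 0.0186). The uninjected arrays read 5.53 and 6.03, and Mixer caps were not called against them (limma adjusted p = 0.0759). Both Sox17beta arrays lay below the control ceiling. The copy gata5.L differed by -0.15 (95% interval -0.47 to 0.18). Cer1.S, whose protein (Cerberus) binds and blocks several secreted ligands, Nodal among them, read 5.9 and 6.52 in Mixer caps, 4.94 and 5.13 in Sox17beta caps and 4.74 and 4.71 in uninjected caps (difference 1.18, adjusted p = 0.0226). It rose above the control ceiling on Mixer replicate 2 only.

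Other endodermal genes were not called between the groups. The forkhead factor foxa1.S read 7.93 and 8.46 in Mixer caps and 8.99 and 8.9 in Sox17beta caps, against 6.62 and 6.42 in uninjected caps. Its difference was -0.75 (95% interval -1.19 to -0.32, adjusted p = 0.124), so Sox17beta caps stood above Mixer caps on both arrays without passing the adjusted threshold. Gata6.L read 6.72 and 9.22 in Mixer caps and 6.89 and 7.12 in Sox17beta caps, a difference of 0.97 that was not called (adjusted p = 0.465), with Mixer replicate 1 below both Sox17beta arrays and Mixer replicate 2 above them. The Mix family gene mix1.L differed by -0.05 (-0.33 to 0.24), and sox18.S, a further SoxF gene, by -0.08 (-0.48 to 0.32). These 2 intervals of the probe set values lie within a 2-fold difference in either direction. However, mix1.L stayed below the control ceiling on every array, and sox18.S on every Mixer and Sox17beta array. A difference in transcript could be compressed there, so the intervals do not exclude one.

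**Figure D3:**
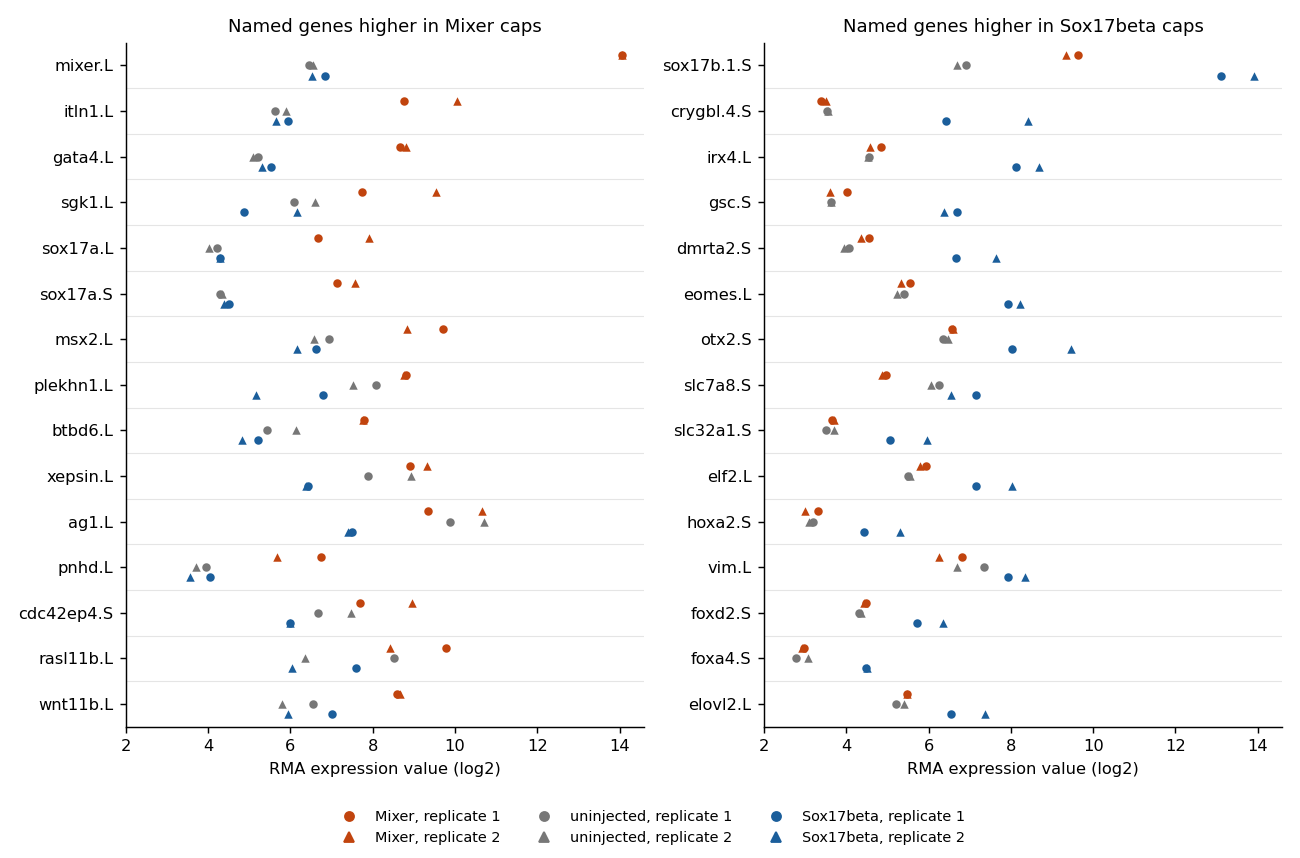
Log2 expression value on each of the 6 arrays (circles, replicate 1; triangles, replicate 2) for the 15 named genes with the largest called difference each way, sox17b.1.S by its gene-specific probe set. On the right panel the Mixer points lie close to the uninjected points for most genes, as for irx4.L (4.85 and 4.57 against 4.56 and 4.52), while on the left panel ag1.L and xepsin.L have their Sox17beta points below the uninjected ones.

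Secreted signals and patterning genes were also among the largest differences in favour of Mixer. The lectin gene itln1.L, whose product is secreted by mucus cells of the epidermis, read 8.76 and 10.06 in Mixer caps, 5.95 and 5.66 in Sox17beta caps and 5.63 and 5.89 in uninjected caps. Mixer caps were alone in being high, by 3.61 ± 0.33 (limma adjusted p = 0.00561). The Sox17beta and uninjected arrays lay below the control ceiling, so the fold is uncertain. The homeobox gene msx2.L, a target of BMP signalling, read 9.7 and 8.84 in Mixer caps, 6.61 and 6.16 in Sox17beta caps and 6.94 and 6.58 in uninjected caps, a difference of 2.88 (adjusted p = 0.000471). A second msx2.L probe set differed by -0.04 (adjusted p = 0.909), with all 6 arrays between 5.97 and 6.3, so the probe sets of this gene disagree.

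A pair of genes for secreted proteins of the Wnt list followed the same course. Wnt11b.L, a Wnt ligand of mesoderm and gastrulation movements, read 8.59 and 8.66 in Mixer caps, 7.02 and 5.93 in Sox17beta caps and 6.56 and 5.79 in uninjected caps, a difference of 2.15 (limma adjusted p = 0.0121). Pnhd.L, which encodes the secreted protein pinhead, read 6.74 and 5.68, 4.05 and 3.57, and 3.94 and 3.71 in that order, a difference of 2.4 (adjusted p = 0.0043). The first pnhd.L probe set rose above the control ceiling on Mixer replicate 1 only. In another probe set of pnhd.L the difference was 0.84 (adjusted p = 0.0303), and that probe set never rose above the control ceiling. Of 41 measured Wnt genes 3 were called higher in Mixer caps, these 2 and the Wnt antagonist sfrp2.S. The receptor fzd3.L was called higher in Sox17beta caps, and the list median was 0.02. Among all probe sets 1% and 0.555% were called in these directions. Sfrp2.S read 9.82 and 8.69 in Mixer caps, 8.11 and 6.6 in Sox17beta caps and 9.56 and 8.63 in uninjected caps, so it was the Sox17beta arrays that were low within each replicate number (difference 1.9, adjusted p = 0.0043). Fzd3.L read 5.45 and 5.91 in Mixer caps, 6.75 and 7.08 in Sox17beta caps and 6.34 and 6.51 in uninjected caps (difference -1.24, adjusted p = 0.00703), with the Mixer arrays below the rest.

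The remaining named genes higher in Mixer caps were of several kinds. Sgk1.L, a serine/threonine kinase induced by serum and glucocorticoids, read 7.73 and 9.55 in Mixer caps, 4.88 and 6.16 in Sox17beta caps and 6.08 and 6.59 in uninjected caps (difference 3.12, limma adjusted p = 0.00539). It stood above uninjected in Mixer caps and below it in Sox17beta caps, the latter without a call. Plekhn1.L, btbd6.L, cdc42ep4.S, which encodes a binding partner of the GTPase Cdc42, and the Ras-like gene rasl11b.L differed by 2.81, 2.77, 2.33 and 2.29, with adjusted p from 0.00436 (rasl11b.L) to 0.0108 (plekhn1.L and cdc42ep4.S). The 2 largest unnamed differences, 3.99 and 3.79, came from probe sets whose identifiers share a stem, so they may read one transcript.

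Among the genes higher in Sox17beta caps were several transcription factors. The Iroquois gene irx4.L read 8.12 and 8.68 in Sox17beta caps, 4.85 and 4.57 in Mixer caps and 4.56 and 4.52 in uninjected caps, a difference of -3.69 ± 0.20 (12.9-fold, limma adjusted p = 0.000471). The T-box gene eomes.L, a regulator of mesoderm and endoderm, read 7.93 and 8.21, 5.55 and 5.32, and 5.41 and 5.23 in that order, a difference of -2.64 (adjusted p = 0.000649). The organizer homeobox gene gsc.S read 6.69 and 6.37, 4.01 and 3.59, and 3.62 and 3.62, a difference of -2.73 (adjusted p = 0.000471). None of the 3 was called between Mixer and uninjected caps, and both of these groups were below the control ceiling.

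Of 23 measured organizer genes, 5 were called higher in Sox17beta caps and 2 in Mixer caps, and the list median was -0.02. Of all probe sets, 0.555% and 1% were called in these directions. The 5 were gsc.S, otx2.S, foxa4.S, fst.L and lhx1.L, and the 2 were the antagonists sfrp2.S and cer1.S. Further homeobox genes outside this list were called both ways, though homeobox genes as a class were not counted. Higher in Mixer caps were, for example, crx.L (2.02), crx.S (1.89), lhx5.S (1.3 and 1.045 in 2 probe sets) and not.L (1.8). Both lhx5.S probe sets read lower in Mixer and in Sox17beta caps than in uninjected caps. The one with 1.045 read 6.64 and 6.8 in Mixer caps, 5.87 and 5.48 in Sox17beta caps and 7.78 and 8.05 in uninjected caps. Crx.L, crx.S and not.L were not called between Mixer and uninjected caps. The copy not.S differed by -0.03. Higher in Sox17beta caps were, for example, nkx3-3.S (-1.275), nkx2-2.S (-1.195), lhx2.L (-0.9) and pou3f4.L (-0.79). Nkx2-2.S and lhx2.L stayed below the control ceiling on every array. The head homeobox gene otx2.S read 8.02 and 9.46 in Sox17beta caps, 6.57 and 6.59 in Mixer caps and 6.36 and 6.46 in uninjected caps (difference -2.16, adjusted p = 0.0293). The activin and BMP antagonist fst.L read 6.17 and 6.57, 4.9 and 4.91, and 4.87 and 5.01 (difference -1.47, adjusted p = 0.00539). It rose above the control ceiling on Sox17beta replicate 2 only. The forkhead gene foxa4.S, at 4.47 and 4.5 in Sox17beta caps against 2.97 and 2.91 in Mixer caps (difference -1.55, adjusted p = 0.0043), and the LIM homeobox gene lhx1.L (difference -1.33, adjusted p = 0.0186) stayed below the control ceiling on every array.

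The probe sets for the copies of these genes did not all differ alike. Otx2.L was measured by 2 probe sets with differences of -1.27 (adjusted p = 0.117) and -1.07 (adjusted p = 0.127), and one of them had risen in Mixer caps as well, to 5.8 and 5.22 from 3.36 and 3.53 in uninjected caps. The gsc.L probe sets differed by -0.27 (95% interval -0.58 to 0.04) and -0.22, and foxa4.L by 0.09 (-0.26 to 0.43). These gsc.L and foxa4.L probe sets stayed below the control ceiling on every array, so the intervals do not exclude a difference in transcript. A probe set with several names, whose identifier shares the gsc.L stem, was called (-2.365, limma adjusted p = 0.00789). It read 6.84 and 7.4 in Sox17beta caps and 5.03 and 4.48 in Mixer caps. Over the called genes with a probe set for both copies there were 47 pairs, each copy taken at its brightest probe set. A gene entered by any called probe set, so in some pairs neither copy was called at its brightest one. Dynll1, for example, counted with 0.2 (L) and -0.12 (S). The share of pairs with the same sign among all genes was not counted. In 6 pairs both copies were called, namely ccnd1, crx, gata4, lmo4.2, slc7a8 and sox17a, and in 39 pairs the copies had the same sign. A probe set of one copy may also bind the transcript of the other.

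Other named genes higher in Sox17beta caps had varied roles. Crygbl.4.S, named for the gamma-crystallins of the lens, read 6.42 and 8.42 in Sox17beta caps against 3.39 and 3.51 in Mixer caps, a difference of -3.97 (limma adjusted p = 0.00984). In this probe set only Sox17beta replicate 2 lay above the control ceiling. The second crygbl.4.S probe set gave -3.19 (adjusted p = 0.000471), with Mixer arrays at 5.88 and 5.82 and uninjected arrays at 6.45 and 7. The DM-domain gene dmrta2.S read 6.67 and 7.64 in Sox17beta caps and 4.56 and 4.35 in Mixer caps (difference -2.7, adjusted p = 0.00795). The vesicular GABA and glycine transporter slc32a1.S (-1.83), the ETS factor elf2.L (-1.73), the Hox gene hoxa2.S (-1.73) and the forkhead gene foxd2.S (-1.57) had adjusted p from 0.0102 (foxd2.S) to 0.0303 (hoxa2.S). Slc32a1.S and hoxa2.S stayed below the control ceiling on every array, and foxd2.S rose above it on Sox17beta replicate 2 only. A second elf2.L probe set (-1.2, adjusted p = 0.0551) and the copy hoxa2.L (-0.58, adjusted p = 0.125) were not called. A probe set with several names, whose identifier shares the hoxa2.S stem, was called (-1.61, limma adjusted p = 0.0182). It read 6.7 and 7.56 in Sox17beta caps, above the control ceiling, and 5.56 and 5.48 in Mixer caps.

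Of 51 neural plate and placode genes, 5 were called higher in Sox17beta caps and 2 in Mixer caps, with a list median of -0.05. Among all probe sets 0.555% and 1% were called in these directions. The 5 were irx4.L, dmrta2.S, otx2.S, foxd3.S (-1.42) and zic5.S (-1.06), and the 2 were myc.S (1.63) and sox3.S (1.54). A second myc.S probe set was also called (1.575), and another was not (0.66, limma adjusted p = 0.118). Foxd3.S stayed below the control ceiling on every array, and zic5.S rose above it on Sox17beta replicate 2 only. The general neural marker sox2.L, at 8.32 in Mixer caps and 8.63 in Sox17beta caps, was not called (adjusted p = 0.449), and ncam1.L was below the control ceiling on every array. Sox3.S, a SoxB gene of uncommitted and neural ectoderm, read 10.86 and 9.9 in Mixer caps, 9.22 and 8.46 in Sox17beta caps and 10.22 and 9.68 in uninjected caps, so the Sox17beta arrays were the low ones (adjusted p = 0.0051). The copy sox3.L differed by 0.29 without a call (limma adjusted p = 0.42).

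The remaining named genes higher in Sox17beta caps included transporters and structural or metabolic genes. The amino acid transporter slc7a8.S read 7.14 and 6.54 in Sox17beta caps, 4.96 and 4.86 in Mixer caps and 6.26 and 6.05 in uninjected caps (difference -1.93, limma adjusted p = 0.00323), with uninjected arrays between the injected groups. Its copy slc7a8.L differed by -0.64 (adjusted p = 0.0388). The intermediate filament gene vim.L differed by -1.6 (adjusted p = 0.0334), while vim.S differed by 0.48 in the other direction without a call (adjusted p = 0.17). The fatty acid elongase elovl2.L differed by -1.49 (adjusted p = 0.0182) and rose above the control ceiling on Sox17beta replicate 2 only. The largest unnamed difference was -5.94, with 10.46 and 11.23 in Sox17beta caps, 4.88 and 4.93 in Mixer caps and 4.75 and 5.09 in uninjected caps (adjusted p = 4.93e-05), and a second unnamed probe set differed by -2.86 (adjusted p = 0.0051).

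Of 41 measured epidermal genes, 7 were called higher in Mixer caps and 0 in Sox17beta caps, where 1% and 0.555% of all probe sets were called in these directions. None of the 7 was called without the block. The list median of 0.63 compared with -0.03 for all probe sets. The median was 0.21 in replicate 1 and 0.92 in replicate 2. Against uninjected caps the list's median was -0.34 in Mixer caps, where 2 rose and 4 fell, and -1.17 in Sox17beta caps, where 0 rose and 21 fell. Over all probe sets 0.536% rose and 0.775% fell in Mixer caps, and 1.88% rose and 3.56% fell in Sox17beta caps. In caps, fewer cells of a type and less RNA per cell cannot be told apart.

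The 7 fell into a pair of kinds. Itln1.L and msx2.L, described above, had risen in Mixer caps. For ag1.L, klf17.L, gata2.L, msx1.L and tubb4b.L the Sox17beta arrays were the low ones, and msx1.L had fallen in Mixer caps as well. The cement gland gene ag1.L read 9.34 and 10.65 in Mixer caps, 7.49 and 7.41 in Sox17beta caps and 9.88 and 10.7 in uninjected caps (difference 2.54, limma adjusted p = 0.0108). The Krüppel-like factor klf17.L read 10.48 and 10.33, 9.14 and 8.35, and 10.76 and 10.56 in that order (difference 1.66, adjusted p = 0.00834). The epidermal serine protease xepsin.L, outside the list, read 8.9 and 9.31, 6.43 and 6.37, and 7.88 and 8.94 (difference 2.71, adjusted p = 0.00539).

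Among the epidermal keratins 1 probe set was called, a second one of krt70.S, which read 10.83 and 11.31 in Mixer caps, 9.87 and 9.48 in Sox17beta caps and 11.3 and 11.77 in uninjected caps (difference 1.39, limma adjusted p = 0.0324). The brightest krt70.S probe set, which stands for the gene in the list, differed by 1.39 without a call (adjusted p = 0.103). Other keratins differed more between the replicates. Krt12.4.S read 4.97 and 8.34 in Mixer caps, 4.64 and 4.77 in Sox17beta caps, and 6.38 and 9.25 in uninjected caps, so the groups differed by 0.33 in replicate 1 and by 3.57 in replicate 2. The mean difference of 1.95 had a 95% interval of 0.35 to 3.55 and an adjusted p of 0.261. For krt70.L the corresponding differences were 0.51 and 3.19, and for krt12.5.S they were -0.66 and 1.92. The homeobox genes dlx5.L and dlx6.S were below uninjected in both groups and differed between them by 0.17 (-0.24 to 0.58) and -0.11 (-0.47 to 0.26).

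Of 39 measured ventral and BMP responsive genes, 7 were called higher in Mixer caps and 0 in Sox17beta caps, none of them without the block. Among all probe sets 1% and 0.555% were called in these directions. The list median was 0.52, with 0.32 in replicate 1 and 0.82 in replicate 2. Against uninjected caps 2 rose and 3 fell in Mixer caps, and 0 rose and 22 fell in Sox17beta caps, with medians of -0.17 and -0.74. Of the 7, msx1.L, msx2.L and gata2.L are also among the 7 of the epidermal list. The homeobox repressor ventx3.2.S read 7.99 and 8.22 in Mixer caps, 6.44 and 6.06 in Sox17beta caps and 6.94 and 6.65 in uninjected caps (difference 1.86, limma adjusted p = 0.00539), so Mixer caps were above uninjected. Ventx2.1.S read 10.51 and 10.17, 9.39 and 8.64, and 10.22 and 9.86 (difference 1.33, adjusted p = 0.00834), so here Sox17beta caps were below it. Id3 (1.08), an inhibitor of bHLH factors, and ventx1.1.L (1.03) were called in the same direction. Gata2.L, a GATA factor of ventral ectoderm, differed by 1.31 (adjusted p = 0.0177) and by 1.35 in a second probe set. The BMP decoy receptor bambi.L differed by 0.85 (0.45 to 1.24, adjusted p = 0.0666) and was not called.

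**Figure D4:**
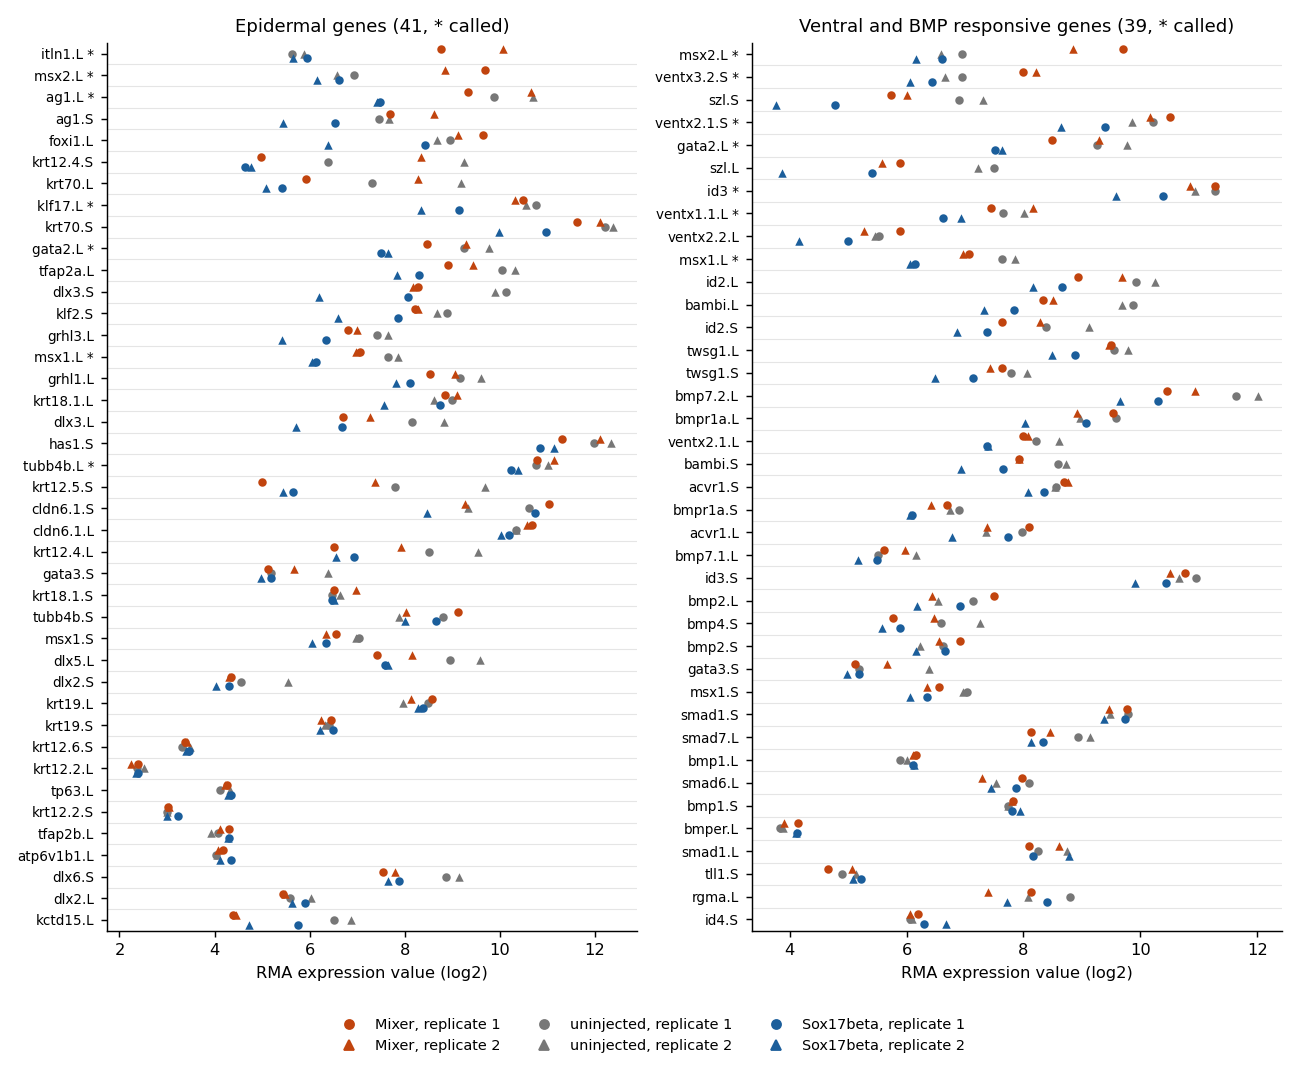
Log2 expression value on each of the 6 arrays for the 41 epidermal genes (left) and the 39 ventral and BMP responsive genes (right), ordered by Mixer minus Sox17beta; circles are replicate 1, triangles replicate 2, and an asterisk marks a called gene. Sox17beta points lie left of the Mixer points over the upper part of both panels, and for keratins such as krt12.4.S this is a matter of replicate 2 (8.34 against 4.77) more than of replicate 1 (4.97 against 4.64).

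Of 33 measured mesodermal genes, 2 were higher in Mixer caps (wnt11b.L and hes7.1.L) and 1 in Sox17beta caps (eomes.L), where 1.56% of all probe sets were called in either direction. The list median was -0.04. Hes7.1.L, a transcriptional repressor of the Hes family, read 8.81 and 7.43 in Mixer caps, 6.93 and 5.52 in Sox17beta caps and 8.05 and 6.65 in uninjected caps. The injected groups did not overlap, the uninjected values overlapped both, and within each replicate number the order from the top was Mixer, uninjected, Sox17beta (difference 1.89 ± 0.11, limma adjusted p = 0.000575, without the block 1). The apelin receptor aplnr.L read 9.94 and 9.35 in Mixer caps and 9.34 and 8.44 in Sox17beta caps, against 7.87 and 5.95 in uninjected caps, and was not called between them (0.76, 95% interval 0.08 to 1.43, adjusted p = 0.306).

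In the signalling and adhesion lists the calls were scattered. Of all probe sets, 1% were called higher in Mixer caps and 0.555% in Sox17beta caps. Of 29 Nodal and activin genes, cer1.S and the Smad corepressor tgif1.S (0.75, limma adjusted p = 0.0394) were higher in Mixer caps and fst.L in Sox17beta caps (list median 0.02). Of 22 FGF genes, the receptor fgfr2.L was higher in Mixer caps (1.15, adjusted p = 0.0281, list median -0.03), reading 8.54 and 8.92 against 7.74 and 7.42. A second fgfr2.L probe set, with a difference of 1, was not called (adjusted p = 0.1125). Of 48 adhesion, migration and matrix genes, 4 were higher in Mixer caps, among them cmtm8.L (1.99), the chemokine receptor cxcr4.L (1.49) and the ephrin efnb2.S (1.26), and vim.L was higher in Sox17beta caps (list median 0.11). Cxcr4.L read 9.34 and 9.33 in Mixer caps, 8.22 and 7.47 in Sox17beta caps and 9.59 and 9.45 in uninjected caps. Cxcr4.S, by contrast, read 9.17 and 8.88, 9.11 and 9.22, and 7.74 and 7.29, so both injected groups were above uninjected and differed by -0.14 (-0.50 to 0.22).

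Cell cycle and stress genes were called in 1 direction, higher in Mixer caps, where 1% of all probe sets were called. Of 56 cell cycle genes, 4 were higher in Mixer caps and 0 in Sox17beta caps (list median 0.12). They were the cyclins ccne2.L (1.71), ccnd1.L (1.29) and ccnd1.S (1.06), and wee1.S (0.97), a kinase that restrains mitotic entry, with limma adjusted p from 0.00703 to 0.0169. For the 3 cyclin probe sets the Sox17beta arrays lay below both other groups, for ccne2.L at 6.43 and 5.95 against 7.73 and 8.07 in Mixer caps and 8.49 and 8.71 in uninjected caps. For wee1.S the Mixer arrays lay above, at 7.97 and 8.28 against 7.08 and 7.23 in Sox17beta caps and 7.13 and 7.11 in uninjected caps. A second wee1.S probe set (0.455, adjusted p = 0.231) and wee1.L (1.05, adjusted p = 0.128) were not called. Of 27 stress and cell death genes, sgk1.L, the cyclin G gene ccng1.L (1.37) and the haem oxygenase hmox1.L (0.76) were higher in Mixer caps (list median 0.23).

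Other lists showed 1 call or none. Wnt11b.L was the call among 19 vegetal and germ plasm RNAs and the call among 21 blood and vascular genes was sox17b.1.S, the injected gene itself. Among 19 loading genes, hprt1.L, a purine salvage enzyme, was higher in Sox17beta caps (-1.02, limma adjusted p = 0.0182). None of 21 gut and liver genes was called, and the smallest p was that of sox9.S (1.14, adjusted p = 0.0502). The medians of these 4 lists lay between -0.09 (gut and liver) and 0.09 (vegetal and germ plasm). Over all 16 lists, 51 of 470 distinct genes were called, where 1.56% of all probe sets were. The lists were drawn up with earlier results of these data known and hold the injected genes.

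**Figure D5:**
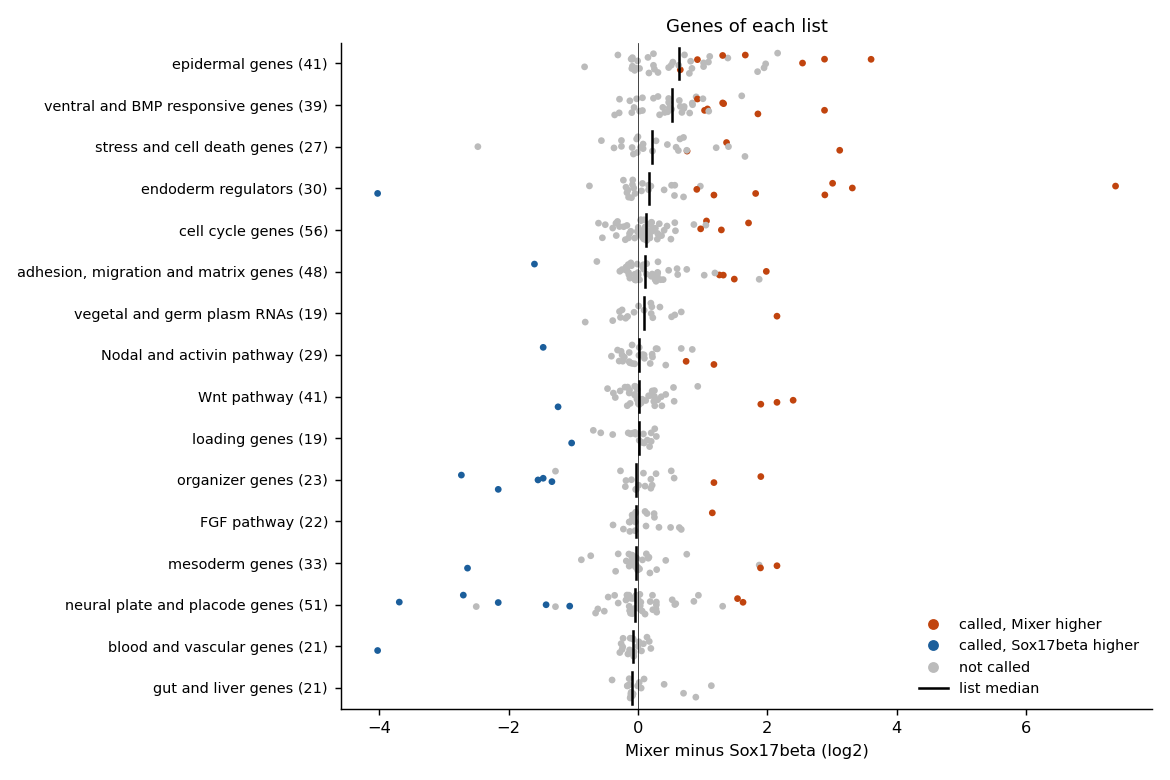
Mixer minus Sox17beta (log2) for every measured gene of the 16 lists, 1 point a gene at its brightest probe set, with the number of genes in brackets; orange and blue points were called and black bars mark list medians. The epidermal (0.63) and the ventral and BMP responsive (0.52) medians lie right of 0, and the organizer and neural lists have called points on both sides of medians near 0.

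Markers of other tissues were read on all 6 arrays. Of 12 measured ectodermal markers, the mean log2 level per array was 7.89 and 8.66 in uninjected caps, 6.82 and 7.72 in Mixer caps and 6.56 and 5.88 in Sox17beta caps. None of the 12, each at its brightest probe set, was called between the injected groups, whose means lay closer in replicate 1 than in replicate 2. Of 10 endodermal markers the mean was 4.93 and 5.06, 6.02 and 6.94, and 5.29 and 5.43 in the same order of groups. Of these 10, 4 were called higher in Mixer caps, as were 1% of all probe sets. All 5 muscle and paraxial mesoderm markers, and 6 of 7 blood markers, stayed below the control ceiling on every array. The mean of 9 neural markers lay between 6.1 and 6.53 on the 6 arrays, and that of 4 multiciliated cell markers between 4.61 and 4.9. On every array 4 of the 9 and 3 of the 4 stayed below the control ceiling. Among the neural markers sox3.S was called, higher in Mixer caps, and among 5 cement gland markers ag1.L was. The cement gland mean was 6 and 6.3 in uninjected caps, 5.98 and 6.56 in Mixer caps and 5.44 and 5.14 in Sox17beta caps. None of 4 germ line markers was called. The part of these cell types in the differences was not tested.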

How the data were processed

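RNA was measured on 6 one-colour Affymetrix arrays. The authors deposited log2 values, 1 per probe set. The submitters' processing notes name RMA, with no version. This method corrects background, equalises the arrays' distributions and summarises the probes of a set, and it can compress differences near background. The values (2.24 to 14.07) entered the fits as deposited, and 0 columns belonged to another series. The number of arrays limits the precision.

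Names came from the platform's annotation (9304 tested probe sets with 1 symbol, 195 with several, 5992 with none). Of these, 9227 matched the RefSeq gene table of Xenopus_laevis_v10.1, which updated 2. No coordinates are given, because no build is named for the values.

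All 6 arrays were fitted with lmFit and eBayes in limma 3.58.1 (R 4.3.3), with group means and the replicate number as a block, leaving 2 residual degrees of freedom. P-values are two-sided and adjusted over all 15491 probe sets, and 95% intervals are unadjusted. Arrays were paired by the replicate number in their titles. Deviations from group means of same-numbered arrays correlated at 0.776 (Mixer, Sox17beta), 0.867 (uninjected, Mixer) and 0.732 (uninjected, Sox17beta). The fit was also run on simulated data built with a replicate block, which cannot tell whether the block suits the real arrays. Figures used matplotlib 3.10.9.

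Members, lists, tests and alternatives were chosen with earlier results of these data known. Named genes were the 15 largest called, non-overlapping differences each way, all probe sets of the injected genes, up to 4 called genes per list (or the smallest p), 2 unnamed probe sets each way, and further copies and probe sets of these. Gata5, foxa1.S, gata6.L, mix1.L, sox18.S, lhx1.L, foxd3.S, zic5.S, sox3.S, sox2.L, ncam1.L, msx1.L, tubb4b.L, the keratins, the Dlx genes, id3, ventx1.1.L, bambi.L, aplnr.L, efnb2.S and the pairs with both copies called were added after their values were seen. Alternatives were the fit without the block, the 4 injected arrays alone, other normalizations, filters, variance priors and thresholds, and leaving out each array. Of the called genes of the adhesion list, 1 is not reported here by name.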

Additional observations from a re-analysis of the deposited data

How the results depend on the processing

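The number of called probe sets was 241 (155 higher in Mixer caps, 86 in Sox17beta caps) and moved by more than 1.5 times under several alternatives. Without the replicate block it was 9 (5 and 4), on the 4 injected arrays with the block 12 (7 and 5) and without it 1 (1 and 0). At an adjusted p of at most 0.01 it was 71 (44 and 27). Leaving out each array in turn gave 0 to 136 calls, 0 to 71 higher in Mixer caps and 0 to 65 higher in Sox17beta caps. With the block, the fits on fewer arrays leave fewer residual degrees of freedom. The cause of these moves was not tested. Other settings gave 165 to 322, with 53 higher in Sox17beta caps among probe sets above the controls on at least 2 arrays. With quantile normalization 322 were called, 238 of them among the 241, and the probe sets higher in Sox17beta caps with the uninjected mean between the groups went from 29 to 46. The genes of any list called went from 51 to 5 without the block. The difference itself stays the same without the block, on the 4 injected arrays, without an uninjected array and under filters or other variance priors. A sign change was thus possible only with another normalization or without an injected array, where no called named probe set showed one. Of 66 called ones, 9 passed without the block, 11 on the 4 injected arrays and 39 without Sox17beta replicate 1. The share higher in Mixer caps stayed between 62% and 70.2% under the settings with over 12 calls, except 52.2% without Sox17beta replicate 1.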
